A study of Mus musculus with 28 samples.

Results

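The 8 genes described here, Dcn, Lum, Col1a1, Col1a2, Col3a1, Slc6a13, Igf2 and Ogn, are a list of fibroblast and collagen genes of the brain's coverings, taken by symbol from 48709 gene identifiers of the count data. RNA was sequenced from the CA1 field of the hippocampus of mice aged 3 months, after 4 weeks of treatment begun at an age of 2 months. The 3 groups were 10 libraries of wildtype mice given vehicle, 9 of CamkdeltaC transgenic mice given vehicle and 9 of CamkdeltaC transgenic mice given vorinostat. Vehicle or vorinostat, an inhibitor of histone deacetylases, was taken in drinking water, and the wildtype mice were littermates. Males and females were used. CamkdeltaC names a splice form of the kinase CaMKII, which calcium and calmodulin switch on, and as background such mice are known as a heart failure model with the kinase made in heart muscle cells. The promoter that drives the transgene is not stated in the labels, and vorinostat in wildtype mice was not analysed here. The labels do not tie each library to its own mouse, and p-values therefore measure only how these samples spread, part of which may be technical.

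Fibroblasts of the brain lie in the meninges and along larger vessels, where they build a matrix of fibrillar collagen and of small proteoglycans that coat and space the collagen fibrils. Type I collagen is assembled from the chains encoded by Col1a1 and Col1a2, and type III collagen from the chain encoded by Col3a1. Dcn encodes decorin, Lum lumican and Ogn osteoglycin, all small leucine-rich proteoglycans that bind collagen. Slc6a13 encodes the transporter GAT2 for GABA and taurine, and Igf2 encodes insulin-like growth factor 2, an imprinted growth factor. In the adult mouse brain both are known from the leptomeninges, and Igf2 also from the choroid plexus.

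Libraries held 20230085 to 33191857 counts. CA1 pyramidal neuron markers (Wfs1, Fibcd1, Pou3f1, Mpped1 and Neurod6) summed to 1081 to 1527 CPM (a gene's counts scaled by the library total in the usual way) in every library, so the markers of the labelled field were present throughout. Markers of cortical, dentate granule and thalamic neurons summed to 122 to 253, 27.0 to 99.2 and 62.2 to 104 CPM by library. How much neighbouring tissue each sample held was not tested. In bulk samples fewer cells of a type and less RNA per cell cannot be told apart. In 4 libraries, wildtype vehicle 2 and vorinostat 6, 7 and 9, mitochondrially encoded transcripts held 6.39% to 7.48% of counts, against 2.84% to 4.11% in the other 24. Xist was above 10 CPM in 6 of the 10 libraries of wildtype mice, 3 of the 9 of transgenic mice given vehicle and 5 of the 9 given vorinostat.

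The genes lie at 7 places in the genome (coordinates in GRCm38, also called mm10). Dcn (ENSMUSG00000019929; chromosome 10, 97479609 to 97518143, plus strand) and Lum (ENSMUSG00000036446; chromosome 10, 97565128 to 97572703, plus strand) are neighbours. Col1a1 (ENSMUSG00000001506) spans 94936224 to 94953042 of chromosome 11 on the plus strand. Col1a2 (ENSMUSG00000029661) spans 4504814 to 4541544 and Slc6a13 (ENSMUSG00000030108) 121300227 to 121337733 of chromosome 6, both on the plus strand. Col3a1 (ENSMUSG00000026043; chromosome 1, 45311538 to 45349706, plus strand) lies beside Col5a2, and 141 of its exon bases are shared with Gm47302. Igf2 (ENSMUSG00000048583; chromosome 7, 142650766 to 142666816, minus strand) shares 3596 exon bases with Gm49394 and 98 with Igf2os on the other strand. The identifier of Gm49394 was not among those counted. The library kit does not keep the strand, so reads of Igf2 and Igf2os cannot be told apart over those 98 bases. Ogn (ENSMUSG00000021390; chromosome 13, 49608046 to 49624501, plus strand) lies within Cenpp, which runs on the other strand, with no shared exon bases.

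Promoter sequence was shown for Col3a1, Slc6a13 and Igf2, whose RNA levels moved together across libraries, below, and for Ogn, which followed them less closely. RefSeq start sites on GRCm38.p6 were matched for 5 of the 8 genes, and 1 window is printed for each of 4, with the 250 bases before a start site, 5′ to 3′ on the gene's strand. The printed windows were chosen after the motif search, as those free of annotated exon bases that held a motif. Those of Slc6a13 and Igf2 precede start sites inside the annotated gene and lie in introns. The window matched for Col1a2 is not printed, as 127 of its bases lie in annotated exons. Capitals mark TATAAA or CCAAT, searched on both strands, where the opposite strand of CCAAT reads ATTGG.
Col3a1, chr1:45311288-45311537, plus strand: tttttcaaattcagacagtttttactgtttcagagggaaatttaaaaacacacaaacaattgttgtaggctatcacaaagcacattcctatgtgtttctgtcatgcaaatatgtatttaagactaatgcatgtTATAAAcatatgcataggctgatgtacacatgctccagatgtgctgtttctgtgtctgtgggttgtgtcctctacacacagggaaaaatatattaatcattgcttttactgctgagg
Slc6a13, chr6:121300490-121300739, plus strand: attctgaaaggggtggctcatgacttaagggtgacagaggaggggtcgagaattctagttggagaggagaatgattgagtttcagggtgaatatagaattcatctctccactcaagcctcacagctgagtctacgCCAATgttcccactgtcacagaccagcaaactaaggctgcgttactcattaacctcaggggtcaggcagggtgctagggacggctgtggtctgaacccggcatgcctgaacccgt
Igf2, chr7:142657497-142657746, minus strand: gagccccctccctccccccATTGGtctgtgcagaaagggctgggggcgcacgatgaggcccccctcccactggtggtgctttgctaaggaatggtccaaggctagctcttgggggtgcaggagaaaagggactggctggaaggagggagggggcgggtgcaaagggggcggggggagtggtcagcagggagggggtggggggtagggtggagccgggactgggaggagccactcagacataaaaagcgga
Ogn, chr13:49607765-49608014, plus strand: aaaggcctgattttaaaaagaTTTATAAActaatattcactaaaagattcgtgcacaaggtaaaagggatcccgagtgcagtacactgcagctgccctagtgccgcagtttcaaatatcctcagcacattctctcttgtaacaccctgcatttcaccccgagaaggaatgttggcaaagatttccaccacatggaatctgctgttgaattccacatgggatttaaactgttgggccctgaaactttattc
TATAAA stood at 117 bases before the start of Col3a1 and at 227 before that of Ogn, where both strands match in overlap. CCAAT stood at 115 bases before this start of Slc6a13 and, on the opposite strand, at 231 before this start of Igf2. Of 32851 RefSeq windows of the same length, 12.4% held TATAAA and 33.9% held CCAAT, so neither is rare. A pair of windows not printed are also free of exon bases and hold neither motif: 1 before another start site of Slc6a13 (chr6:121303389-121303638, GC content 49.6%) and 1 before the outermost start site of Igf2 (chr7:142666817-142667066, 50.8%). The printed windows also differed in base composition: GC content was 35.2% for Col3a1, 42.0% for Ogn, 51.6% for Slc6a13 and 66.0% for Igf2, beside a median of 52.4% over all windows. A match in letters is a description and not evidence of binding.

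All 8 genes passed the low-count filter, among 17009 genes tested. Per kilobase of exon, mean levels ± SD over the 28 libraries were 15.1 ± 4.99 CPM for Dcn, 5.58 ± 2.10 for Igf2, 1.99 ± 0.794 for Slc6a13 and 1.0 ± 0.295 for Col1a1. Lum (0.805 ± 0.261), Ogn (0.779 ± 0.640) and Col1a2 (0.684 ± 0.300) followed within each other's SD, and Col3a1 was lowest at 0.221 ± 0.104. Of the summed CPM of the 8 genes, Dcn alone held a median of 59.7% (27.1% to 77.5% by library) and Igf2 21.9% (12.4% to 38.9%). A sum over the 8 genes is therefore mostly Dcn. All 8 varied more between libraries than most genes: their biological coefficients of variation in edgeR, which measure spread beyond counting noise within groups, lay between the 95.8th percentile of all genes tested (Col1a1, 0.271) and the 99.8th (Ogn, 0.733). These percentiles were not matched for level, and by mean CPM the members ranked from the 21.1st percentile (Lum) to the 84.1st (Dcn).

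No member passed the test of the counts in any comparison. With edgeR's quasi-likelihood test and Benjamini-Hochberg adjustment over all genes, 0 of the 8 were called in each of the 3 comparisons, beside 0% of the 17009 genes in each. At an unadjusted p under 0.05 the members were again 0 of 8, beside 1.33% of all genes for transgenic vehicle against wildtype vehicle, 14.4% for vorinostat against transgenic vehicle and 12.6% for vorinostat against wildtype vehicle. DESeq2 also called 0 of 8 in each. These comparisons share libraries pairwise, and none of their patterns supports another.

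The fibrillar collagen chains are the structural core of the list. Col1a1 lay at 3.41, 6.62 and 9.58 CPM (lowest, median and highest) in wildtype vehicle, 4.73, 7.37 and 8.82 in transgenic vehicle and 3.29, 5.52 and 11.2 in vorinostat libraries. Col1a2 lay at 4.88, 7.04 and 13.7 CPM in wildtype vehicle, 6.46, 8.09 and 12.9 in transgenic vehicle and 2.73, 8.24 and 22.3 in vorinostat. For both type I chains the groups overlapped nearly throughout, and vorinostat libraries held both the lowest and the highest value. Col1a1 had a log2 fold change of 0.13 (SE 0.184) when transgenic vehicle was set against wildtype vehicle, -0.24 (SE 0.190) when vorinostat was set against transgenic vehicle and -0.12 (SE 0.186) when it was set against wildtype vehicle. Col1a2 had 0.17 (SE 0.255), -0.08 (SE 0.261) and 0.09 (SE 0.256) in the same order.

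Col3a1 lay at 0.968, 1.86 and 3.28 CPM in wildtype vehicle, 1.22, 2.09 and 4.98 in transgenic vehicle and 1.19, 1.98 and 4.68 in vorinostat libraries. The transgenic groups reached higher than wildtype, but the medians were close and the ranges overlapped. Its log2 fold change for transgenic vehicle against wildtype vehicle, 0.50 (SE 0.261), was the largest of the 8 in that comparison and its 95% interval ran from -0.03 to 1.03 (p = 0.0641 unadjusted, adjusted p = 0.9998 by edgeR). For vorinostat against transgenic vehicle it was -0.17 (SE 0.262), and against wildtype vehicle 0.34 (SE 0.264; interval -0.20 to 0.87). The interval of the first comparison includes both 0 and a change of 1 log2 unit. With 1 library left out at a time that value ran from 0.31, without transgenic vehicle 7, to 0.64, without wildtype vehicle 1. For vorinostat against wildtype vehicle it ran from 0.11, without vorinostat 5, to 0.47, without wildtype vehicle 1.

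The small proteoglycans did not move as a set. Dcn lay at 56.8, 90.7 and 124.6 CPM in wildtype vehicle, 25.5, 75.4 and 123.9 in transgenic vehicle and 53.5, 79.3 and 156.4 in vorinostat libraries. The lowest value, in transgenic vehicle 6, stood far below the other 27 libraries. Dcn was the 1 member below 0 for transgenic vehicle against wildtype vehicle (-0.10, SE 0.223), while vorinostat libraries differed from transgenic vehicle by 0.20 (SE 0.229) and from wildtype vehicle by 0.10 (SE 0.223). Without transgenic vehicle 6 the first of these was 0.01. Lum, the neighbour of Dcn, lay at 1.17, 1.94 and 3.14 CPM in wildtype vehicle, 1.30, 2.06 and 3.52 in transgenic vehicle and 1.0, 1.73 and 2.74 in vorinostat. Its ranges overlapped in all 3 groups, with log2 fold changes of 0.11 (SE 0.204), -0.22 (SE 0.211) and -0.11 (SE 0.208).

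Ogn was the most variable member. It lay at 0.264, 1.46 and 3.86 CPM in wildtype vehicle, 0.562, 1.76 and 3.99 in transgenic vehicle and 0.372, 0.921 and 7.66 in vorinostat libraries, from as few as 6 counts in a library to 203. The vorinostat group had the lowest median and the highest single value, in vorinostat 5. Its log2 fold changes were 0.32 (SE 0.50), 0.11 (SE 0.497) and 0.43 (SE 0.498), with intervals about 2 log2 units wide. Without vorinostat 5 the second was -0.44 and the third -0.12.

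Slc6a13 and Igf2 encode a membrane transporter and a secreted growth factor. Slc6a13 lay at 3.42, 5.4 and 8.93 CPM in wildtype vehicle, 4.21, 5.25 and 11.5 in transgenic vehicle and 2.60, 5.68 and 12.6 in vorinostat libraries. Igf2 lay at 16.7, 27.4 and 42.5 CPM in wildtype vehicle, 20.1, 34.0 and 51.6 in transgenic vehicle and 17.2, 30.9 and 72.2 in vorinostat. The middle of the Igf2 range was higher in both transgenic groups, with broad overlap, while the medians of Slc6a13 lay close together. Slc6a13 had log2 fold changes of 0.15 (SE 0.235), -0.09 (SE 0.241) and 0.05 (SE 0.236), and Igf2 0.26 (SE 0.223), -0.09 (SE 0.229) and 0.17 (SE 0.224). Without vorinostat 5 the last of these fell below 0 for both, at -0.19 for Slc6a13 and -0.08 for Igf2.

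**Figure D1:**
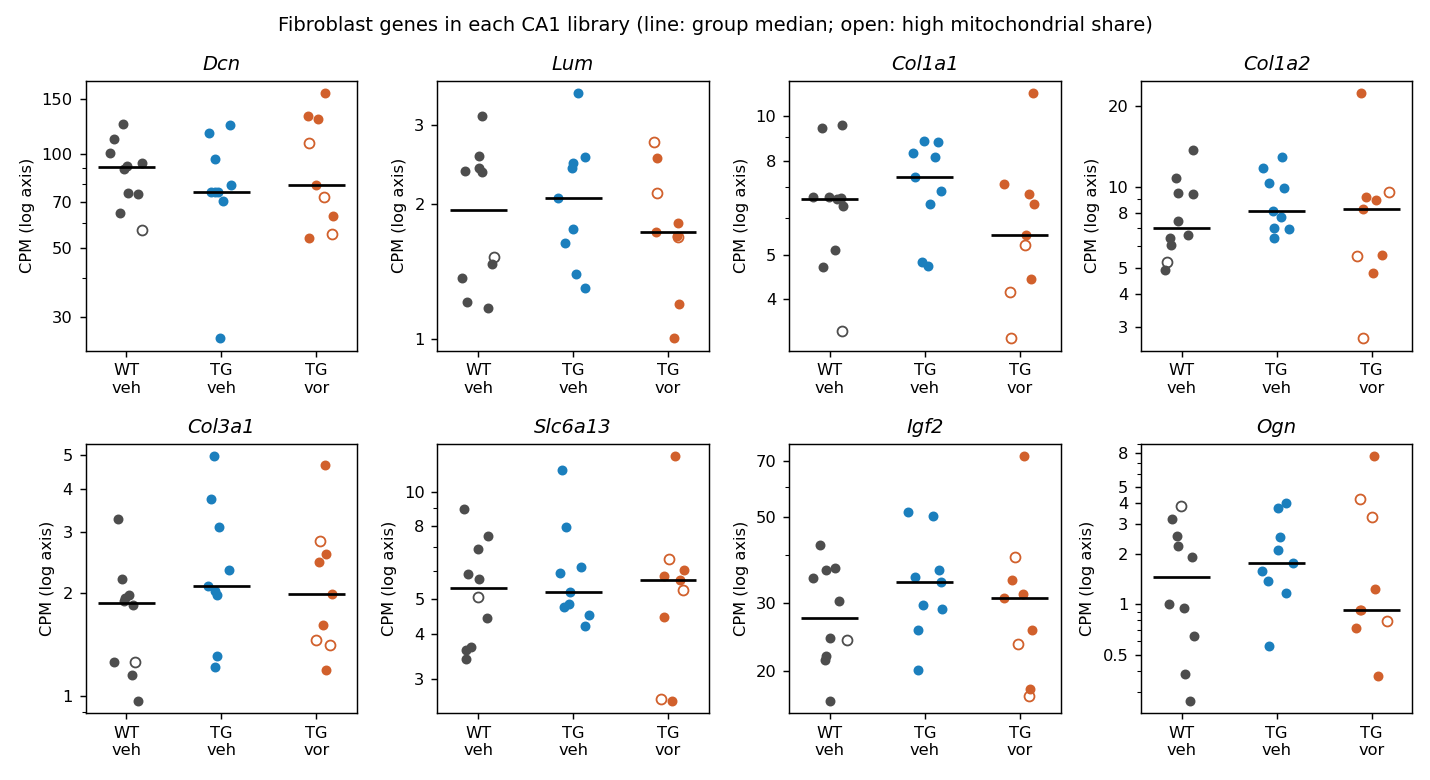
Level of each of the 8 genes (CPM, log axis) in each library by group: wildtype vehicle (WT veh, 10), transgenic vehicle (TG veh, 9) and transgenic vorinostat (TG vor, 9). Points are libraries, lines are group medians and open points are the 4 libraries of high mitochondrial share; the groups overlap for every gene, and Dcn has 1 low transgenic vehicle library at 25.5 CPM.

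Counted over the list, 7 of 8 log2 fold changes were above 0 for transgenic vehicle against wildtype vehicle (median 0.16, beside 50.1% above 0 of all genes), 2 of 8 for vorinostat against transgenic vehicle (median -0.09, beside 50.9%) and 6 of 8 for vorinostat against wildtype vehicle (median 0.10, beside 51.7%). Medians over all genes tested were 0.00, 0.00 and 0.01. As several members vary together across libraries, below, these are not 8 separate observations. Without the 4 libraries of high mitochondrial share, Col1a2, Slc6a13 and Igf2 turned to above 0 (0.13, 0.01 and 0.03) and Ogn to below 0 (-0.06) for vorinostat against transgenic vehicle.

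**Figure D2:**
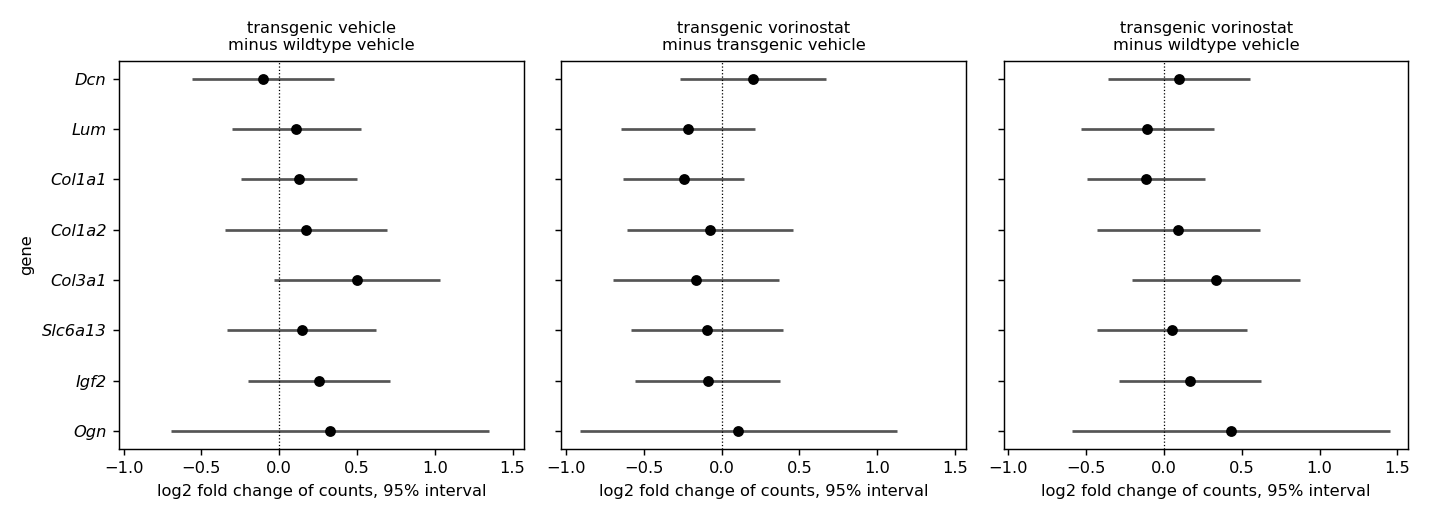
Log2 fold change of each gene in the 3 comparisons, from edgeR counts, with bars for the 95% interval. Every interval includes 0; that of Col3a1 for transgenic vehicle minus wildtype vehicle, from -0.03 to 1.03, comes nearest to excluding it, and those of Ogn are widest.

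Levels of 5 members rose and fell together from library to library. After group means were subtracted, the 10 pairs among Col1a1, Col1a2, Col3a1, Slc6a13 and Igf2 had Pearson r of 0.714 to 0.929 and Spearman rho of 0.681 to 0.934 over 28 libraries. These 5 were set apart after their values were seen, out of 28 pairs computed. The closest pair by Pearson was Col1a2 with Igf2 (r = 0.929 and rho = 0.929, each with permutation p = 1e-05, the smallest 100000 permutations can give, adjusted 3.5e-05 and 4e-05). Without the 2 libraries farthest from the median of Col1a2 its r was 0.910, and over the 24 libraries of lower mitochondrial share 0.942. The least close was Col1a1 with Slc6a13 (r = 0.714, permutation p = 0.00012, adjusted 0.000336; rho = 0.681, permutation p = 0.00016, adjusted 0.000448; r without 2 libraries 0.699; over 24 libraries 0.796). The association was present within each group, at r of 0.580 to 0.943 in wildtype vehicle, 0.598 to 0.935 in transgenic vehicle and 0.823 to 0.969 in vorinostat libraries. All points share a library and its depth scaling.

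Ogn followed these 5 less closely over all libraries, at r of 0.250 (Col1a1) to 0.596 (Igf2), with 4 of 5 pairs called by Pearson. With Igf2 its permutation p was 0.002 (adjusted 0.00509) and rho was 0.481 (permutation p = 0.0144, adjusted 0.0368), and r fell to 0.472 without the 2 libraries farthest from the median of Igf2 (adjusted permutation p = 0.0513). Over the 24 libraries of lower mitochondrial share the 5 pairs lay at 0.595 to 0.788. Within groups they lay at -0.074 to 0.291 in wildtype vehicle, 0.415 to 0.814 in transgenic vehicle and 0.465 to 0.806 in vorinostat libraries, and the difference between groups was not tested.

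Dcn and Lum did not share this pattern. The 7 pairs with Dcn had r of -0.153 to 0.266 and rho of -0.103 to 0.276, and 0 of 7 were called. Dcn with Igf2 gave r = -0.078 (permutation p = 0.714, adjusted 0.895) and rho = -0.015 (permutation p = 0.944, adjusted 0.967), with r of -0.018 without the 2 farthest libraries and -0.101 over 24 libraries. The neighbours Dcn and Lum gave r = 0.266 (permutation p = 0.18, adjusted 0.335) and rho = 0.276 (permutation p = 0.161, adjusted 0.3), with 0.262 and 0.284 under the same exclusions. Lum with the 6 members other than Dcn had r of -0.018 to 0.235, again with 0 called. Within groups these 6 pairs lay at -0.471 to -0.023 in wildtype vehicle, 0.023 to 0.596 in transgenic vehicle and 0.037 to 0.549 in vorinostat libraries, so the value near 0 over all libraries joins groups of opposite sign. Whether the groups differ in these correlations was not tested. Of all 28 pairs, 14 were called by Pearson and 12 by Spearman.

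**Figure D3:**
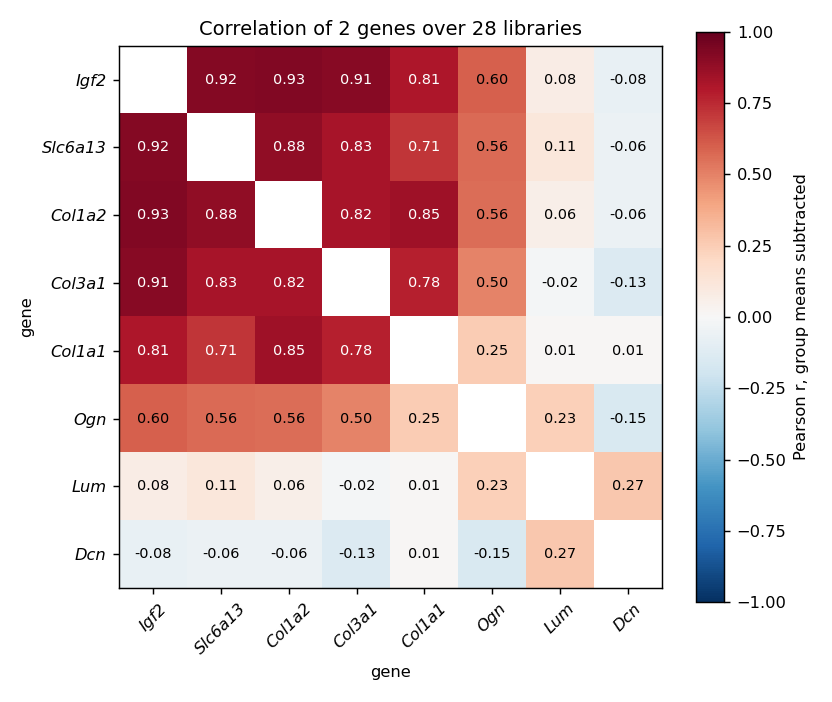
Pearson r of each pair of the 8 genes over 28 libraries (log2 CPM, group means subtracted), coloured from -1 (blue) to 1 (red). A block of 5 genes, Igf2 to Col1a1, holds values of 0.714 to 0.929, while the row of Dcn holds -0.153 to 0.266.

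**Figure D4:**
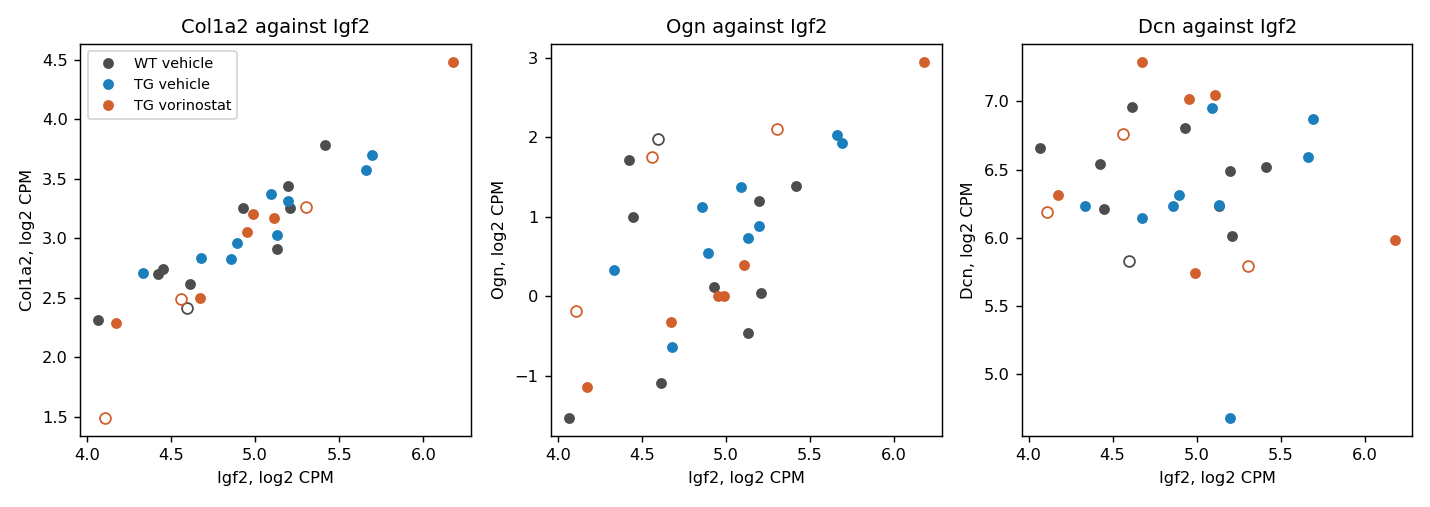
Log2 CPM of Col1a2, Ogn and Dcn (vertical) against Igf2 (horizontal) in each library, coloured by group, with the 4 libraries of high mitochondrial share as open points. Col1a2 rises with Igf2 (r = 0.929), Ogn does so less closely (r = 0.596) and Dcn does not (r = -0.078); the point at the right is vorinostat 5 and the lowest Dcn point is transgenic vehicle 6.

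Some libraries stood high or low for several members. Vorinostat 5 ranked first of 28 for Col1a1 (11.2 CPM), Col1a2 (22.3), Slc6a13 (12.6), Igf2 (72.2) and Ogn (7.66) and second for Col3a1 (4.68), but 24th for Dcn (63.1) and 14th for Lum (1.81). Transgenic vehicle 7 ranked between 1st and 6th for all 8 genes. Vorinostat 7 ranked 28th for Col1a1 and Col1a2 and 27th for Slc6a13 and Igf2, so for both type I collagen chains the highest and the lowest library were given vorinostat. Transgenic vehicle 6 ranked 28th for Dcn but 4th for Col1a1, 3rd for Col3a1 and 7th for Igf2.

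Ratios of members within a library were compared next, as a ratio does not depend on the library total. Col1a1 to Col1a2, whose products pair in type I collagen, had a median ratio of counts of 0.830 in wildtype vehicle (0.619 to 1.09), 0.748 in transgenic vehicle (0.677 to 1.03) and 0.801 in vorinostat libraries (0.503 to 1.21). The 3 groups overlapped, and the mean log2 ratio differed by -0.05 (SE 0.123), -0.03 (SE 0.152) and -0.08 (SE 0.164) in the order of comparisons above. Col3a1 to Col1a2 had medians of 0.217 (0.177 to 0.321), 0.260 (0.188 to 0.386) and 0.278 (0.198 to 0.521). It was higher in vorinostat than in wildtype vehicle by 0.36 on the log2 scale (SE 0.164; above the wildtype mean in 7 of 9 libraries; two-sided exact permutation p = 0.0323), but not after adjustment over the 15 ratio tests (adjusted p = 0.485). Without the 4 libraries of high mitochondrial share that difference was 0.24 (exact permutation p = 0.155, adjusted p = 0.58). For transgenic vehicle against wildtype vehicle that ratio differed by 0.25 (SE 0.151, exact permutation p = 0.11, adjusted p = 0.657). Igf2 to Dcn ran from 0.163 to 1.43 over all libraries, and Lum to Dcn from 0.0112 to 0.0649. The log2 ratio of Lum to Dcn differed by -0.41 for vorinostat against transgenic vehicle (SE 0.286, exact permutation p = 0.171, adjusted p = 0.657), and by -0.66 without those 4 libraries (exact permutation p = 0.0532, adjusted p = 0.58). Over all 28 libraries none of the 15 tests passed after adjustment, and the smallest adjusted p was 0.485.

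The authors' deposited table of adjusted expression gave other calls for 2 members. It holds values after a mixed linear model whose terms are not given in the sources used here, read as log2. For transgenic vehicle against wildtype vehicle, limma on that table called 2 of 8, beside 2.2% of its 18014 genes: Col3a1 (0.60, adjusted p = 0.0379) and Igf2 (0.64, adjusted p = 0.0383). For vorinostat against wildtype vehicle it called the same 2, beside 13.9% of genes, at 0.48 (adjusted p = 0.0333) and 0.55 (adjusted p = 0.0277). For vorinostat against transgenic vehicle it called 0 of 8, beside 0.222% of genes. In the authors' deposited table all 8 log2 differences were above 0 for transgenic vehicle against wildtype vehicle (median 0.45, where the counts gave 0.16), beside 59.9% of all its genes. Of the 8 members, 1 was above 0 in the authors' deposited table for vorinostat against transgenic vehicle (median -0.10, beside 52.6%) and 7 of 8 for vorinostat against wildtype vehicle (median 0.38, where the counts gave 0.10, beside 58.5%). Medians over all genes of the authors' deposited table were 0.02, 0.01 and 0.03. In the authors' deposited table Igf2 lay at 2.97, 3.28 and 4.18 (lowest, median and highest) in wildtype vehicle, 3.63, 3.97 and 4.64 in transgenic vehicle and 3.32, 3.81 and 4.72 in vorinostat libraries. The groups overlapped there too, and both transgenic medians stood above that of wildtype. In the authors' deposited table Col3a1 lay at -0.63, -0.20 and 0.37 in wildtype vehicle and -0.17, 0.37 and 1.12 in transgenic vehicle. Both genes lay above 0 in these 2 comparisons by either source, with only the adjusted values past the threshold. Whether the model's terms included the groups is not given in the sources used here, so these p-values carry an unknown error.

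The authors' deposited table of coexpression modules placed the 8 genes in 3 modules. Col1a2, Col3a1, Slc6a13, Igf2 and Ogn were in the module blue, of 1606 genes, with membership scores of 0.483 to 0.672 in the authors' deposited table. The authors' deposited table put Col1a1 in cyan (0.757), and Dcn (0.320) and Lum (0.293) in brown. The membership p-values of Dcn (0.0844) and Lum (0.116) in the authors' deposited table were above 0.05, and Dcn had a higher score, 0.382, for the module lightyellow. Which samples the modules were built from is not given in the sources used here. They come from the same study, so they are not taken as independent support for the correlations.

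Genes outside the list were then ranked by likeness to the mean standardised level of the 8, over 28 libraries with group means subtracted. The 6 most alike by Spearman were Anpep (0.862), an aminopeptidase, Slc6a20a (0.836), an imino acid transporter, Itih2 (0.816), Slc22a8 (0.811), an organic anion transporter, Pcolce (0.798), an enhancer of procollagen processing, and Olfml2a (0.797). Genes most like Dcn alone, chosen after values were seen, were others: AW551984 (0.863), Dlk1 (0.823), Nr2f2 (0.822), Mctp1 (0.819), Syt9 (0.814) and Serpina3g (0.813). A cutoff of r at or above 0.6, also set after values were seen, gave a similar division: 14 of 28 other meningeal and perivascular fibroblast markers reached it with Igf2, beside 1.31% of 17001 genes, and 0 of 28 with Dcn, beside 1.12%. Highest of the 14 were Gjb2 (r with Igf2 0.899, with Dcn -0.316), Aldh1a2 (0.894 and -0.211), Islr (0.866 and -0.184), Slc13a3 (0.834 and -0.296) and Slc22a6 (0.821 and -0.238). Cyp1b1, also among them, was above 0 with both (0.708 and 0.171), and Fbln1 lay just under the cutoff with both (0.596 and 0.546). Of the border macrophage markers tested, 4 of 4 reached the cutoff with Igf2 and 0 with Dcn. Reaching it with Igf2 was therefore not particular to fibroblast markers. Of 11 other collagens 2 reached it with Igf2, and of 17 genes of collagen processing 1 did. By this cutoff Dcn did not track the markers of the cell type that names the list in these libraries. Levels, sums and ratios that include Dcn are therefore not read here as a measure of fibroblasts. Which cells its RNA came from was not tested.

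Markers of neighbouring cell types were set beside the members, with 80 correlations computed. Border macrophage markers (Cd163, Mrc1, Lyve1, F13a1 and Pf4) summed to 2.94 to 7.89 CPM in wildtype vehicle, 4.01 to 7.59 in transgenic vehicle and 3.99 to 13.3 in vorinostat libraries, and none of the 5 was at 0 in all. With Igf2 their sum gave r = 0.813 (permutation p = 1e-05, adjusted 0.0008) and rho = 0.774 (permutation p = 3e-05, adjusted 0.0016), with 0.759 without the 2 farthest libraries and 0.898 over 24 libraries. With Slc6a13 it gave r = 0.790 (permutation p = 2e-05, adjusted 0.0008) and rho = 0.760 (permutation p = 4e-05, adjusted 0.0016), with 0.718 and 0.835. With Dcn it gave r = -0.173 (permutation p = 0.361, adjusted 0.506) and rho = -0.070 (permutation p = 0.725, adjusted 0.823), with -0.144 and -0.095. The macrophage sum gave r of 0.702 with Col1a2, 0.660 with Col3a1 and 0.656 with Ogn (adjusted permutation p = 0.0048, 0.0032 and 0.00973). These were also called by rho. Col1a1 (r = 0.471, adjusted permutation p = 0.0869) and Lum (r = -0.114, adjusted permutation p = 0.698) were not called. Pericyte and smooth muscle markers gave r = 0.563 and rho = 0.573 with Igf2 (adjusted permutation p = 0.0299 and 0.0345). With Col3a1 they gave 0.509 and 0.571 (adjusted permutation p = 0.0377 and 0.0345).

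Choroid plexus markers (10 listed, including Ttr, Kl and Aqp1) summed to 12.7 to 37.7 CPM in wildtype vehicle, 17.7 to 57.8 in transgenic vehicle and 10.3 to 112 in vorinostat libraries, with the highest sum in vorinostat 5. None of the 10 was at 0 in all libraries. With Igf2 their sum gave r = 0.464 (permutation p = 0.0332, adjusted 0.106) and rho = 0.343 (permutation p = 0.085, adjusted 0.204), with 0.181 without the 2 farthest libraries and 0.438 over 24 libraries. With Ogn it gave r = 0.524 (permutation p = 0.0081, adjusted 0.0381) and rho = 0.467 (permutation p = 0.0152, adjusted 0.0717), with 0.290 without the 2 farthest libraries and 0.550 over 24 libraries. Red blood cell markers summed to 21.2 to 106 CPM in wildtype vehicle, 17.9 to 46.5 in transgenic vehicle and 36.3 to 142 in vorinostat libraries. With Dcn their sum gave r = -0.494 (permutation p = 0.00605, adjusted 0.0357) and rho = -0.510 (permutation p = 0.0112, adjusted 0.0717), with -0.391 and -0.502. With Col1a1 it gave r = -0.532 (permutation p = 0.00801, adjusted 0.0381) and rho = -0.472 (permutation p = 0.0152, adjusted 0.0717), with -0.431 and -0.176. The other members lay at r of -0.392 (Col1a2) to 0.244 (Ogn), with none called, so Dcn was not alone in this. Cortical neuron markers gave r = 0.590 with Slc6a13 and 0.564 with Col3a1 (adjusted permutation p = 0.00973 and 0.0231). With Igf2 and Col1a2 they gave 0.492 and 0.475 (adjusted 0.0357 and 0.0345). Thalamic neuron markers gave 0.535 with Col3a1 and 0.526 with Slc6a13 (adjusted 0.0343 and 0.0345). Dentate granule neuron markers gave 0.568 with Lum (adjusted 0.0291). By rho, all these neuron marker correlations had adjusted permutation p above 0.05. The part of these cell types in the members' values was not tested.

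The wider pathway lists held 0 genes called in any comparison. Of 11 other collagens, 4 were above 0 for transgenic vehicle against wildtype vehicle (median -0.03), 3 for vorinostat against transgenic vehicle (median -0.02) and 4 for vorinostat against wildtype vehicle (median -0.05). The most abundant of them were Col16a1 (38.0 CPM), Col5a1 (37.2) and Col6a1 (32.7), with -0.07, -0.20 and -0.29 in the first comparison. Of 17 genes of collagen processing, 12, 5 and 6 were above 0 (medians 0.04, -0.08 and -0.03). Sparc (238.8 CPM), a collagen-binding protein, had -0.03, and the prolyl hydroxylase subunits P4hb and P4ha1 had 0.04 and 0.09. The medians of both lists lay near 0 in the comparison where 7 of the 8 members lay above it. Of the other meningeal and perivascular fibroblast markers, below, 22 of 28 lay above 0 there (median 0.09). Over all genes tested, 50.1%, 50.9% and 51.7% lay above 0 in the 3 comparisons.

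Of 11 other small leucine-rich proteoglycans, 8, 5 and 5 were above 0 in the 3 comparisons (medians 0.03, -0.11 and -0.01), led in level by Prelp (0.08, -0.23 and -0.15), Bgn (0.16, -0.11 and 0.05) and Podn (-0.03, 0.02 and -0.01). Of 28 other meningeal and perivascular fibroblast markers, 22, 9 and 14 were above 0 (medians 0.09, -0.04 and 0.00), led by Fn1 (-0.05, -0.04 and -0.10), Pdgfra (0.01, 0.05 and 0.05) and Cemip (0.07, -0.19 and -0.11). Of 12 genes of collagen turnover and transforming growth factor beta signals, 6, 4 and 6 were above 0 (medians -0.01, -0.02 and -0.03), led by Timp2 (-0.07, -0.10 and -0.17), Timp3 (0.02, 0.00 and 0.02) and Tgfb2 (-0.08, -0.06 and -0.14).

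Of 6 collagen receptors, 4, 3 and 3 were above 0 (medians 0.04, 0.00 and 0.05), led by Ddr1 (0.14, -0.27 and -0.13), Itgb1 (0.04, 0.17 and 0.21) and Ddr2 (0.04, 0.11 and 0.15). Of 4 partners of Igf2, 4, 1 and 1 were above 0 (medians 0.05, -0.09 and -0.04), led by the receptors Igf1r (0.05, -0.14 and -0.09) and Igf2r (0.01, -0.14 and -0.12) and the binding protein Igfbp2 (0.05, -0.05 and 0.00). H19, the imprinted neighbour of Igf2, was below the filter at a mean of 0.0740 CPM, beside 31.9 for Igf2. Of these 4 partners only Igfbp2 followed Igf2 closely across libraries, at r = 0.796 with group means subtracted. Igf1r (0.272), Igf2r (0.139) and Igf2bp3 (0.076) had lower values.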

How the data were processed

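RNA of 28 CA1 libraries was described by whole-number read counts per gene, deposited by the authors. The submitters' processing notes name STAR 2.5.2b, featureCounts (Subread 1.5.1), FastQC 0.11.5 and the build mm10. The annotation, strand and multiple-match settings of the counting are not given in the sources used here. Reads were 50 bp, single-end and unstranded, per the labels' protocols. Groups and replicate numbers were taken from the sample titles. The authors also deposited adjusted expression values, read as log2 (the base is not given), and module membership scores with their p-values, per the file headers.

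Identifiers were matched to symbols for 48349 of 48709, and coordinates are GENCODE's. The 117 pairs of libraries within groups differed by more than counting noise (chi-square per degree of freedom 3.18 to 79.4). Counts were tested with edgeR 4.0.16 in R 4.3.3 (quasi-likelihood, TMM scaling, robust, low-count filter with a minimum count of 10 and total of 15, 1 fit over all libraries), with Benjamini-Hochberg adjustment over 17009 genes at 0.05 and 95% intervals. CPM of single genes used TMM-adjusted totals, and summed markers plain totals. Correlations used log2 CPM (prior count 2) with group means subtracted and permutation within groups. Ratios used a pseudocount of 0.5 count and two-sided exact permutation tests. DESeq2 1.42.0, and limma 3.58.1 on the adjusted table, were alternatives. The steps were tested on simulated data. The members, gene lists and tests were chosen with earlier results of these data known. All 8 members were named, with the 3 most abundant genes of each other list, every listed gene called and the 6 genes most like the members' mean. A list of transporters is not reported here.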

Additional observations from a re-analysis of the deposited data

Results flagged for a closer look

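Among 39 tests of a single far library, 2 values stood apart from their group, about as many as the 1 in 20 that chance gives. Both rest on the same Dcn value, and the tests share genes and libraries. They are therefore not 2 separate observations, and the comparison with chance is only rough. Dcn was lowest in transgenic vehicle 6, at 4.679 log2 CPM, and its gap to the next library was 0.645 of the range of the 9 transgenic vehicle libraries. In the same library Igf2 to Dcn was highest, at a log2 ratio of 0.518, with a gap share of 0.597. That library held 608 counts of Dcn (25.5 CPM) and 871 of Igf2 (36.6 CPM), and its total of 23636545 counts and mitochondrial share of 3.53% were within the range of the others.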

How the results depend on the processing

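From counts, the number of members called was 0 under every alternative run (other scaling, no low-count filter, DESeq2, a replicate block, an Xist term, without the 4 libraries of high mitochondrial share and without each library in turn). Over all 17009 genes DESeq2 called 1 for vorinostat against transgenic vehicle where edgeR called 0, and leaving out 1 library gave 0 to 1 there and 0 to 3 for vorinostat against wildtype vehicle. On the authors' adjusted table limma called 2 for transgenic vehicle against wildtype vehicle and 2 for vorinostat against wildtype vehicle, where Dcn (0.0214) and Col1a1 (0.13) changed sign, respectively, as did Ogn for vorinostat against transgenic vehicle (-0.12); the cause was not tested. The replicate numbers of the titles showed no clear pairing of libraries (7 of 27 same-numbered pairs correlated above 0.1). They differ in part from the numbers in the submitters' sample codes. A pairing carried by those codes could not show here and was not tested. With the title number as a replicate block, signs changed for Ogn (-0.0780, vorinostat against transgenic vehicle), Col1a2 (-0.0419) and Slc6a13 (-0.0406, both vorinostat against wildtype vehicle). With this block 1 gene of 17009 was called for vorinostat against wildtype vehicle, against 0 without it. Without the 4 libraries, for vorinostat against transgenic vehicle Col1a2 (0.13), Igf2 (0.0322), Slc6a13 (0.0143), Ogn (-0.0629) and the ratio of Col3a1 to Col1a2 (-0.0301) changed sign, and so did Col1a1 for vorinostat against wildtype vehicle (0.00419).

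Leaving out 1 library at a time, 21 of 672 log2 fold changes changed sign. For transgenic vehicle against wildtype vehicle the ranges that crossed 0 were -0.20 to 0.0141 (Dcn), -0.0136 to 0.22 (Lum) and -0.0210 to 0.25 (Slc6a13). For vorinostat against transgenic vehicle they were -0.41 to 0.0392 (Col1a2), -0.39 to 0.0203 (Col3a1), -0.44 to 0.28 (Ogn) and -0.34 to 0.0696 (Slc6a13), and for vorinostat against wildtype vehicle -0.24 to 0.21 (Col1a2), -0.0276 to 0.17 (Dcn), -0.0792 to 0.25 (Igf2), -0.20 to 0.00774 (Lum), -0.12 to 0.65 (Ogn) and -0.19 to 0.15 (Slc6a13). Log2 ratios crossed 0 for Col1a1 to Col1a2 (-0.11 to 0.0498 for vorinostat against transgenic vehicle, -0.16 to 0.002 against wildtype vehicle) and, for vorinostat against wildtype vehicle, Lum to Dcn (-0.22 to 0.0231), Igf2 to Dcn (-0.16 to 0.19) and Slc6a13 to Dcn (-0.28 to 0.0728). Of 56 alternatives for the 14 called pairs, 50 stayed called and the other 6 all involved Ogn. Ogn rested on 6 to 203 counts a library and Col3a1 on 22 to 133, which limits their precision.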
